A study of Mus musculus with 21 samples.

Results

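Kcnq1, Kcnh2, Hcn4, Cacna1c, Cacna1d, Cacna1g, Cacnb2 and Slc8a1 encode ion channel subunits and an exchanger of the surface membrane of heart muscle cells. They were taken by gene symbol from the expression tables of hearts of CD1 mouse embryos, and all 8 were found among the 24509 genes listed. Null hearts carried the recombined, CHD4-depleted genotype Chd4(Δflox/Δflox), and control hearts carried the unrecombined floxed genotype Chd4(flox/flox), called flox here. CHD4 is a chromatin-remodelling ATPase of the NuRD complex. There were 5 null and 5 flox RNA libraries at embryonic day 9.5 (E9.5) and 3 null and 3 flox libraries at E10.5. The recombinase that made the null allele, and whether hearts were pooled for a library, are not given in the sources used here. A separate set of 3 chromatin immunoprecipitation (ChIP) libraries with an antibody to CHD4 came from wild-type hearts at E10.0, and these 3 libraries stand for 2 biological samples per the series' design text.

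A heart muscle cell fires when inward sodium and calcium currents outweigh outward potassium currents. The L-type calcium channel, a pore subunit such as Cacna1c or Cacna1d with a beta subunit such as Cacnb2, carries the calcium that triggers contraction, and the sodium-calcium exchanger Slc8a1 removes it again in exchange for sodium. Kcnh2 and Kcnq1 form the pores of the rapid and slow delayed rectifier potassium currents that end the action potential, while Hcn4 carries the pacemaker current and Cacna1g is the pore of a T-type calcium channel, both prominent in pacemaker cells.

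For 6 of the 8 genes an annotated start was at hand, and at 4 of these the authors' CHD4 peaks overlapped the 250 bases before a start in all 3 ChIP libraries. The share of all genes that meet this rule was not computed, so the count only says which stretches are shown. Within 1 kb of a start, 63.1% of 10314 genes had peaks in all 3 libraries. Genes with several starts, such as Cacna1c with 3 and Cacnb2 with 2, had more chances to meet it. Those 250 bases are shown because the peaks described further on overlapped them by at least 1 base, some in part only. They were read from RefSeq's promoter sequences of GRCm38.p6, the assembly also called mm10, and run 5′ to 3′ on the strand of the gene, ending just before the start. Capitals mark matches, on either strand, to the GATA motif AGATAA, the NKX2 motif TNAAGTG, the GC box GGGCGG, the TATA box TATAAA and the T-box motif AGGTGT. No matches overlapped one another in the printed stretches. The order is Slc8a1 (chr17:81738388-81738637, minus strand), the third start of Cacna1c counted by position (chr6:119196410-119196659, minus strand), the second start of Cacnb2 (chr2:14823842-14824091, plus strand) and Hcn4 (chr9:58822699-58822948, plus strand).
Slc8a1: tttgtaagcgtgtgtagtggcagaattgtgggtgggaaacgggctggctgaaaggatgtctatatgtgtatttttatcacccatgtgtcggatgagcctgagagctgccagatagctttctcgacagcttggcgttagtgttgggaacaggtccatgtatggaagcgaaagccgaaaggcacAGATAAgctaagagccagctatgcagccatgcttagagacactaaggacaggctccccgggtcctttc
Cacna1c: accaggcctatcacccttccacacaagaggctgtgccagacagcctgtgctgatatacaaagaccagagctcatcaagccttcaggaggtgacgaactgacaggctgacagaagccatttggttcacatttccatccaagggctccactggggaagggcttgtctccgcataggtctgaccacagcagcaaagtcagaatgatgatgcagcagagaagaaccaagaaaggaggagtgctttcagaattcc
Cacnb2: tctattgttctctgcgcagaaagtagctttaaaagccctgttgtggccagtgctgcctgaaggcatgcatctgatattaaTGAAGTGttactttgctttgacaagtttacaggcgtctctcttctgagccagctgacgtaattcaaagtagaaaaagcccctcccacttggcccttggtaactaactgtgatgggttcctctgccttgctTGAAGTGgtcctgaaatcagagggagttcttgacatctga
Hcn4: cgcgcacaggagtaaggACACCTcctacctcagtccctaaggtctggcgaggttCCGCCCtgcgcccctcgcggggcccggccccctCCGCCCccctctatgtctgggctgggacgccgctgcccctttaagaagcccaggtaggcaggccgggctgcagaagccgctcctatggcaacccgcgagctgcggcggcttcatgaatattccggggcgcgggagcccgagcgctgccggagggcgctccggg
The Slc8a1 stretch held 1 GATA match, beginning 68 bases before the start, and 9.99% of the 32851 mouse promoters of this length held that motif. The Cacnb2 stretch held 2 NKX2 matches, at -170 and -40, a motif found in 10.1% of promoters. The Hcn4 stretch held 2 GC boxes, at -196 and -163, and 1 T-box motif at -233, all as the reverse complement, and these motifs occurred in 32.7% and 11.8% of promoters. No match to any of the motifs lay in the Cacna1c stretch, and a TATA box, present in 12.4% of promoters, lay in none of the 4. CG dinucleotides numbered 8 at Slc8a1, 2 at Cacna1c, 3 at Cacnb2 and 25 at Hcn4, against a median of 6 over all promoters. A match is a description of these letters and not evidence of binding.

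Expression was given as RPKM, reads per kilobase of gene scaled to the reads of the library. Library depth was 17.1 to 20.1 M reads in null and 19.6 to 23.5 M in flox hearts at E9.5, and 18 to 18.9 M in null and 17.3 to 18 M in flox hearts at E10.5. Chd4 itself lay at 40.7 to 48.8 RPKM in null and 91.2 to 94.6 RPKM in flox hearts at E9.5, and at 48.2 to 57.4 RPKM in null and 67.2 to 91.1 RPKM in flox hearts at E10.5. The groups did not overlap at either stage, and the log2 difference, null minus flox, was -1.01 at E9.5 (limma adjusted p = 1.69e-06) and -0.55 at E10.5 (limma adjusted p = 0.116). All 15 heart muscle cell markers were detected in every group, with Tnnt2 at 591 to 1245 RPKM over the 16 libraries. Erythroid markers were also abundant: the summed RPKM of 13 such genes was 27900 to 75200 in null and 11000 to 29100 in flox hearts at E9.5, and 9 of the 13 rose there. At E10.5 that sum was 46800 to 143000 RPKM in null and 24400 to 68100 RPKM in flox hearts, and libraries null 2, null 3 and flox 2 also held 1371, 937 and 177 RPKM of foregut and liver markers, against 2.65 to 19.9 RPKM in the other 3.

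At E9.5, 5 of the 8 genes fell in null hearts and none rose: the delayed rectifier genes Kcnq1 and Kcnh2, the L-type pore and beta subunit genes Cacna1c and Cacnb2, and the exchanger gene Slc8a1. The falls were modest, with fitted folds of 0.69 to 0.86. Cacna1d and Hcn4 had lower means in null hearts and Cacna1g a higher one, but these 3 did not pass the test. Differences are null minus flox on the log2(RPKM + 0.5) scale, which understates changes of low genes, and were tested with limma over the 13643 genes that averaged 0.5 RPKM or more. Calls required a p under 0.05 after Benjamini-Hochberg adjustment, and 10.3% of those genes fell, 6.87% rose and 17.2% were called in either direction. In whole hearts, fewer cells of a type and less RNA per cell cannot be told apart.

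Kcnh2, the pore of the rapid delayed rectifier, measured 30.3, 23.4, 23.97, 17.2 and 19.9 RPKM in null hearts and 37.4, 34.3, 35.1, 27.4 and 32.3 RPKM in flox hearts at E9.5. Only null 1 reached into the flox range, where flox 4 was lowest. The difference was -0.54 ± 0.14 (SE; limma adjusted p = 0.0200), and the call ended without null 5 (adjusted p = 0.0542) or without flox 1 (adjusted p = 0.0523). Kcnq1, the pore of the slow delayed rectifier, measured 1.35, 1.42, 1.72, 1.83 and 1.55 RPKM in null hearts and 2.41, 2.57, 1.99, 2.45 and 1.99 RPKM in flox hearts. Every null library lay below every flox library. Kcnq1 fell by 0.42 ± 0.10 (SE; limma adjusted p = 0.0162). Of the 5 calls this was the only one that held in every alternative computed (adjusted p = 0.0131 to 0.0429).

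Hcn4, the main pacemaker channel of the heart, measured 32.5, 17.0, 16.6, 12.8 and 16.3 RPKM in null hearts and 23.9, 19.7, 30.3, 19.4 and 25.1 RPKM in flox hearts. Library null 1 was the highest of all 10, while the other 4 null libraries lay below all 5 flox libraries. The difference was -0.36 ± 0.21 (SE; limma adjusted p = 0.273). Without null 1 it was -0.57 ± 0.14 (SE; adjusted p = 0.0161). Leaving out any of the other 9 libraries gave no call (adjusted p = 0.226 to 0.473), with the difference nearest to 0, -0.24, without null 4. Library null 1 also had the highest sum of 8 sinus node region genes among the 10 libraries, 130.8 RPKM, against 81.8 to 112.3 RPKM in the other 4 null and 82.03 to 126.3 RPKM in flox hearts. Among null hearts it had the highest heart muscle marker sum, 18570 RPKM against 15300 to 17170 RPKM in the other 4. It had their lowest sums of epicardial markers (157 RPKM over 10 genes, against 305 to 467 RPKM), of cushion mesenchyme and fibroblast markers (213.8 RPKM over 10 genes, against 294.5 to 309.5 RPKM) and of erythroid markers. The part of any of these markers in the Hcn4 value was not tested.

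Cacna1c, the main L-type pore of heart muscle, measured 9.27, 7.89, 8.23, 8.80 and 7.63 RPKM in null hearts and 10.1, 10.4, 9.41, 10.8 and 10.3 RPKM in flox hearts. The groups did not overlap. Cacna1c fell by 0.28 ± 0.07 (SE; limma adjusted p = 0.0167). Cacnb2, the beta subunit that carries L-type pores to the membrane, measured 12.6, 11.4, 12.7, 10.95 and 10.5 RPKM in null hearts and 15.1, 14, 14.1, 13.6 and 13.6 RPKM in flox hearts. Here too all null libraries lay below all flox libraries. Cacnb2 fell by 0.27 ± 0.06 (SE; limma adjusted p = 0.0175). Kcnq1, Cacna1c and Cacnb2 were the 3 of 8 without overlap, and 8.57% of all tested genes were lower without overlap. In a fit that shared the spread over all 16 libraries of both stages, the calls of Cacna1c (adjusted p = 0.115) and Cacnb2 (adjusted p = 0.270) ended.

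Cacna1d, the other L-type pore, measured 6.03, 3.04, 3.54, 3.12 and 2.90 RPKM in null hearts and 7.23, 5.73, 6.70, 3.86 and 5.98 RPKM in flox hearts. Null 1 stood among the flox libraries and flox 4 was close to the other null libraries. The difference was -0.62 ± 0.20 (SE; limma adjusted p = 0.0540), just outside the threshold. It passed without null 1 (adjusted p = 0.00638) or flox 4 (adjusted p = 0.0227), with a test on recovered reads (limma-voom adjusted p = 0.0426), with library weights (adjusted p = 0.00822) and in the fit of all 16 libraries (adjusted p = 0.0474). It did not pass when any of the other 8 libraries was left out (adjusted p = 0.0917 to 0.123). Cacna1g, the T-type pore, was the lowest of the 8 genes, with 0.51, 0.83, 0.56, 0.82 and 0.76 RPKM in null hearts and 0.19, 0.39, 0.37, 0.64 and 0.34 RPKM in flox hearts. These levels came from 82 to 125 reads per null library and 33 to 107 reads per flox library. The groups overlapped only through flox 4. The difference was +0.44 ± 0.15 (SE; limma adjusted p = 0.0708), and it passed without flox 4 (adjusted p = 0.0327), with recovered reads (limma-voom adjusted p = 0.0358) and with library weights (adjusted p = 0.0361). It did not pass in the fit of all 16 libraries (adjusted p = 0.155) or when any of the other 9 libraries was left out (adjusted p = 0.0501 to 0.150).

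Slc8a1, the sodium-calcium exchanger, was the most abundant of the 8, with 106.1, 90.4, 103, 100.3 and 98.4 RPKM in null hearts and 118, 119, 116, 105 and 122 RPKM in flox hearts. Only null 1 and flox 4 crossed. Slc8a1 fell by 0.22 ± 0.06 (SE; limma adjusted p = 0.0260), the smallest of the 5 falls. The call ended when null 2, null 5, flox 1, flox 2, flox 3 or flox 5 was left out (adjusted p = 0.0525 to 0.0663), with libraries scaled to a common median (adjusted p = 0.0657) or scaled without erythroid and the 10 most abundant genes (adjusted p = 0.0510), and in the fit of all 16 libraries (adjusted p = 0.338).

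**Figure D1:**
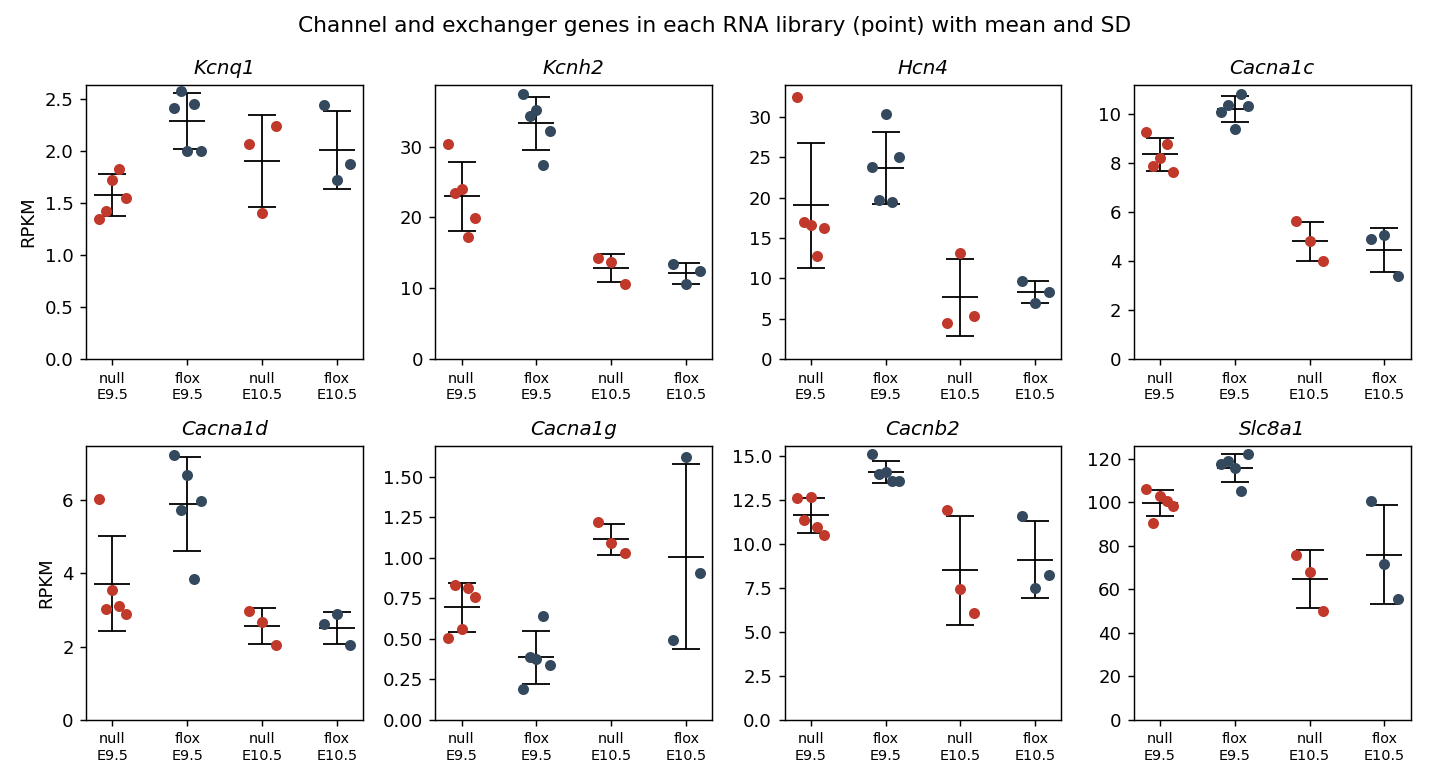
RPKM of the 8 genes in each RNA library (points), in null and flox hearts at E9.5 (5 libraries each) and E10.5 (3 each), with the mean and SD as bars. At E9.5 the null points of Kcnq1, Cacna1c and Cacnb2 lie below all flox points, null 1 stands high for Hcn4 and Cacna1d, and at E10.5 the groups overlap for all 8 genes.

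At E10.5 none of the 8 genes was called by limma, where 2.07% of the 14100 tested genes were. None had an unadjusted p under 0.05, which 22.9% of genes had, and limma-voom on recovered reads called none. The smallest adjusted p among the 8 was 0.634. The groups of all 8 overlapped, while 17.4% of genes were lower and 13.9% higher without overlap. With 3 libraries a group the intervals were wide, so a p that missed the threshold does not show equal levels.

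Kcnh2 measured 14.2, 13.7 and 10.6 RPKM in null and 13.5, 10.5 and 12.4 RPKM in flox hearts, a log2 difference of +0.08 with a 95% interval of -0.31 to 0.47. Kcnq1 measured 2.06, 1.41 and 2.24 RPKM in null and 2.44, 1.71 and 1.88 RPKM in flox hearts (-0.07, interval -0.58 to 0.44). For neither delayed rectifier gene did the libraries of a genotype group together. Hcn4 measured 4.52, 13.2 and 5.30 RPKM in null and 9.64, 6.90 and 8.29 RPKM in flox hearts (-0.24, interval -1.05 to 0.56), so null 2 was above and the other null libraries below all flox libraries. The sinus node region sum was likewise highest in null 2 and lowest in null 1, at 64.65, 115.9 and 91.3 RPKM in null and 96.55, 95.6 and 113.9 RPKM in flox hearts. Null 2 also held the most foregut and liver markers of the 6, given above, and the part of either in the Hcn4 value was not tested.

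Cacna1c measured 5.62, 4.80 and 4.03 RPKM in null and 4.89, 5.07 and 3.40 RPKM in flox hearts (+0.11, interval -0.36 to 0.58). Cacna1d measured 2.98, 2.69 and 2.03 RPKM in null and 2.61, 2.88 and 2.04 RPKM in flox hearts (+0.02, interval -0.45 to 0.50). Both L-type pores spanned about the same range in either genotype. Cacnb2 measured 11.97, 7.44 and 6.09 RPKM in null and 11.6, 7.52 and 8.23 RPKM in flox hearts (-0.13, interval -0.73 to 0.48). Cacna1g measured 1.22, 1.09 and 1.03 RPKM in null and 0.50, 1.62 and 0.91 RPKM in flox hearts (+0.17, interval -0.51 to 0.84), with flox 2 highest and flox 1 lowest of all 6. Slc8a1 measured 75.9, 67.8 and 50.2 RPKM in null and 100.5, 71.6 and 55.5 RPKM in flox hearts (-0.21, interval -0.77 to 0.35).

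**Figure D2:**
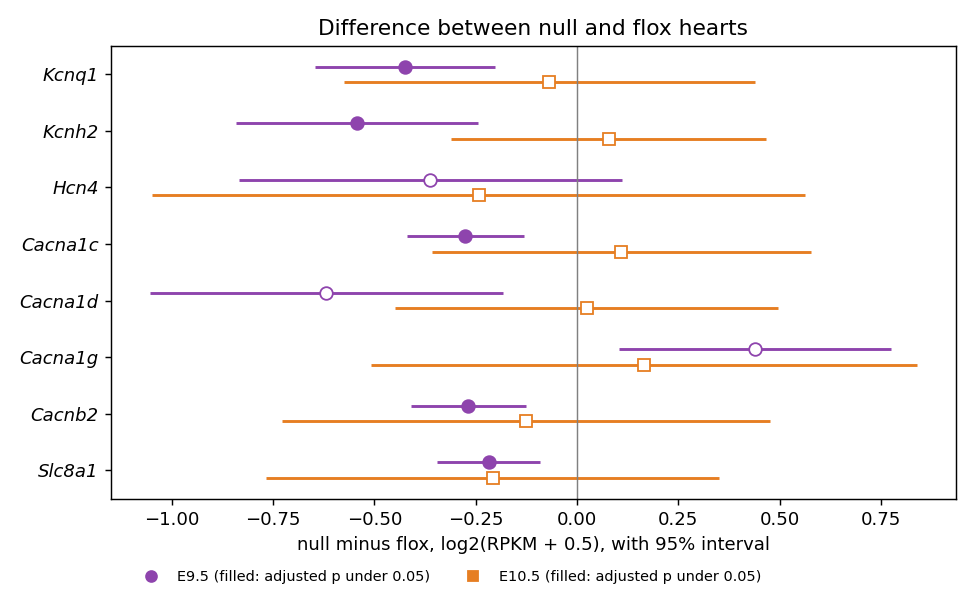
Log2 difference of each gene, null minus flox on the log2(RPKM + 0.5) scale, with its 95% interval from limma, at E9.5 (circles) and E10.5 (squares). Filled symbols passed an adjusted p of 0.05, which 5 genes did at E9.5 and none at E10.5, where every interval includes 0.

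Whether the difference itself changed between the stages was tested with an interaction term over all 16 libraries. None of the 8 genes was called by limma, against 3.82% of 13886 genes. Unadjusted p-values were under 0.05 for 2 of them, Kcnh2 and Cacna1c, as for 26.2% of genes, and none was called with limma-voom. For Kcnh2 the null-minus-flox difference was +0.08 at E10.5 and -0.54 at E9.5, and the change was 0.62 ± 0.22 (SE; limma adjusted p = 0.0973). Cacna1c changed by 0.38 ± 0.17 (SE; limma adjusted p = 0.171) and Cacna1d by 0.64 ± 0.30 (SE; limma adjusted p = 0.195). For Slc8a1 the difference was nearly the same at both stages, -0.21 at E10.5 and -0.22 at E9.5, and the change was 0.01 with a 95% interval of -0.45 to 0.47. A call at E9.5 and none at E10.5 is therefore not shown to be a difference between the stages for any of the 8.

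Levels were lower at E10.5 than at E9.5 for most of the 8 genes, in either genotype. In flox hearts 6 fell and 1 rose, where 19.1% of 13886 genes fell, 24.0% rose and 43.0% were called. The falls in flox hearts were -1.42 for Kcnh2 (mean 12.1 RPKM at E10.5 and 33.3 RPKM at E9.5), -1.46 for Hcn4 (8.28 and 23.7 RPKM), -1.13 for Cacna1c (4.45 and 10.2 RPKM), -1.07 for Cacna1d (2.51 and 5.90 RPKM), -0.65 for Slc8a1 (75.9 and 116 RPKM) and -0.62 for Cacnb2 (9.12 and 14.1 RPKM). Their limma adjusted p-values lay between 1.30e-05 and 0.00749, and for all 6 the libraries of the stages did not overlap, as for 20.7% of genes lower in flox hearts. The call of Cacnb2 ended without flox 2 of E10.5 (adjusted p = 0.0510).

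Cacna1g went the other way: it rose by 0.72 ± 0.21 (SE; limma adjusted p = 0.0142) in flox hearts, to a mean of 1.01 RPKM at E10.5 against 0.39 RPKM at E9.5. The call ended without flox 2 of E10.5 (adjusted p = 0.117). The sum of 10 cushion mesenchyme and fibroblast markers was also higher without overlap, at 369 to 456 RPKM at E10.5 and 183 to 298.5 RPKM at E9.5 in flox hearts, and was highest in flox 2 of E10.5. Its part in the rise of Cacna1g was not tested. Kcnq1 stayed near 2 RPKM, with means of 2.01 RPKM at E10.5 and 2.28 RPKM at E9.5 in flox hearts (-0.16; limma adjusted p = 0.404).

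In null hearts 5 of the 8 genes fell between the stages and none rose, where 9.21% of genes fell and 23.1% were called. The differences were -0.80 for Kcnh2, -1.34 for Hcn4, -0.74 for Cacna1c, -0.64 for Slc8a1 and -0.48 for Cacnb2, with limma adjusted p-values of 0.00121 to 0.0483. The call of Cacnb2 is the weakest: it ended in 13 of the 16 fits that each left out 1 library (adjusted p up to 0.232). Cacna1d (-0.43; limma adjusted p = 0.160), Cacna1g (+0.44; limma adjusted p = 0.148) and Kcnq1 (+0.20; limma adjusted p = 0.329) did not pass. Stage, table and the amount of RNA put into a library, 300 ng at E10.5 and 200 ng at E9.5, cannot be told apart in these contrasts.

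RPKM is per length, so levels can be set beside each other. In both genotypes at E9.5 the order was Slc8a1, Kcnh2, Hcn4, Cacnb2, Cacna1c, Cacna1d, Kcnq1 and Cacna1g, and of neighbouring genes only Kcnh2 and Hcn4 had overlapping ranges. Slc8a1 averaged 99.6 ± 5.9 RPKM in null and 116 ± 6.4 RPKM in flox hearts, and Kcnh2, next in order, 23.0 ± 4.9 and 33.3 ± 3.8 RPKM (SD, n = 5 each). At E10.5 Cacnb2 stood above Hcn4 in either genotype, but the ranges of these neighbours overlapped, as did those of Kcnh2 and Cacnb2 and of Cacna1d and Kcnq1. The ranges of Hcn4 and Cacna1c overlapped in null hearts only.

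Of the 15 heart muscle cell markers 4 fell at E9.5, Mybpc3, Actn2, Myh6 and Actc1, all genes of the contractile apparatus, and 11 were not called. The mean log2 RPKM over the 15 was 8.80 ± 0.09 in null and 9.08 ± 0.09 in flox hearts (SD, n = 5 each), a difference of -0.28, and the groups did not overlap. Set against that mean in the same library, a comparison chosen after the values were seen and given without a test, the E9.5 differences were 0.00 for Cacna1c, 0.01 for Cacnb2 and 0.06 for Slc8a1. They were -0.15 for Kcnq1, -0.26 for Kcnh2, -0.08 for Hcn4 and -0.34 for Cacna1d. For these 7 genes the groups overlapped. Cacna1g was 0.72 higher relative to the markers and did not overlap, but 22.4% of all tested genes were higher without overlap on that scale and 1.08% lower. At E10.5 none of the 15 was called by limma, none had an unadjusted p under 0.05, and the marker mean was 8.64 ± 0.20 in null and 8.42 ± 0.37 in flox hearts (SD, n = 3 each), overlapping, and so were all 8 genes relative to it, where 13.7% of genes were lower and 3.57% higher without overlap.

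On the same scale the stage contrast in flox hearts kept the lower Kcnh2 (-0.76) and Hcn4 (-0.79) at E10.5 without overlap, where 1.03% of genes were lower. Cacna1c (-0.47) and Cacna1d (-0.41), separate by stage before, overlapped on this scale, as did Slc8a1 (0.01) and Cacnb2 (0.04). Kcnq1 (0.51) and Cacna1g (1.38) stood higher without overlap, as did 62.5% of genes. In null hearts Cacna1c (-0.59) and Slc8a1 (-0.48) were lower relative to the markers at E10.5 without overlap, against 1.15% of genes, and Kcnq1 (0.36) and Cacna1g (0.60) were higher without overlap, against 17.7% of genes. Kcnh2 (-0.64), Hcn4 (-1.18), Cacnb2 (-0.32) and Cacna1d (-0.27) overlapped. The marker mean itself was 8.42 at E10.5 and 9.08 at E9.5 in flox hearts, and 8.64 and 8.80 in null hearts.

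**Figure D3:**
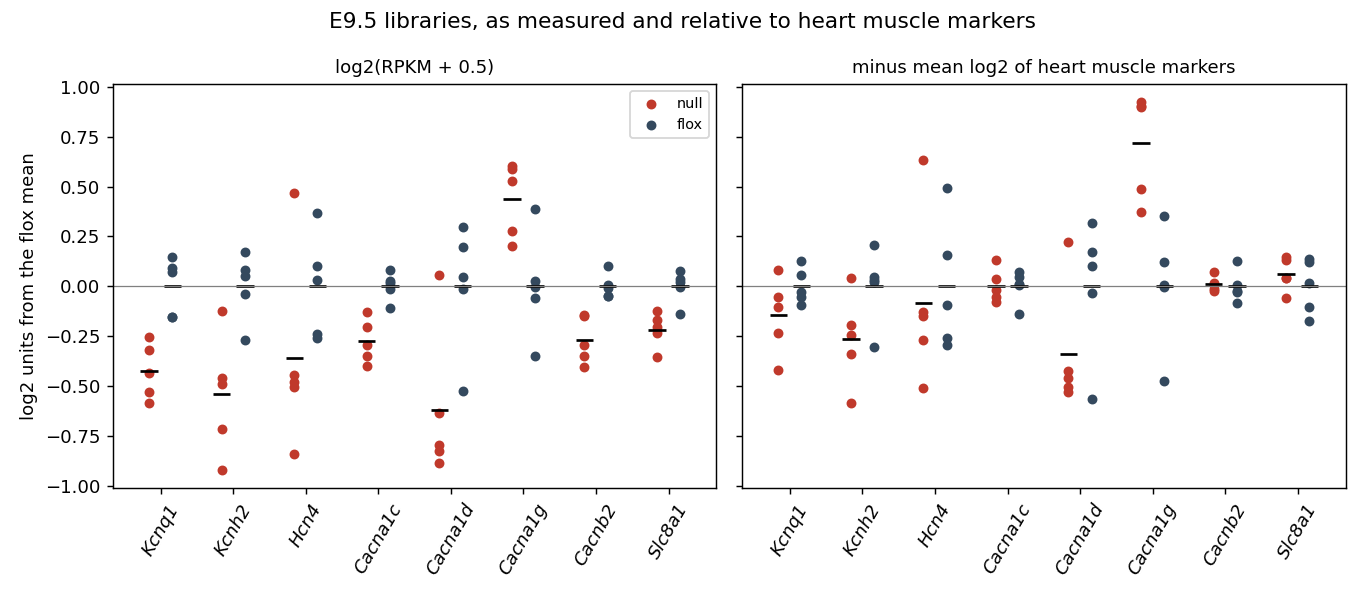
E9.5 libraries of null (red) and flox (dark blue) hearts, as log2 units from the flox mean of each gene, for log2(RPKM + 0.5) on the left and after subtracting the mean log2 of 15 heart muscle markers of the same library on the right; dashes are group means. Cacna1c, Cacnb2 and Slc8a1 move from between -0.28 and -0.22 on the left to within 0.06 of 0 on the right, while Cacna1g moves from 0.44 to 0.72.

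Ratios within a library, taken of RPKM + 0.5, reduce any scaling that its genes share. The added 0.5 weighs on Cacna1g, at 0.19 to 0.83 RPKM at E9.5, and pulls its ratio toward 0. A ratio without an added constant was not computed. Cacna1g is not the only T-type pore: Cacna1h, at 16 RPKM in null and 20.7 RPKM in flox hearts at E9.5, was far above it and fell. A ratio of Cacna1g to Cacna1c thus does not stand for T-type over L-type pores. This log2 ratio, with 0.5 added to each gene, was -3.28, -2.66, -3.04, -2.82 and -2.69 in null and -3.95, -3.61, -3.51, -3.31 and -3.69 in flox hearts at E9.5. On that scale every null library was above every flox library. The means differed by 0.72 (-2.90 ± 0.26 in null and -3.61 ± 0.24 in flox; SD, n = 5 each; exact two-sided permutation p = 0.00794, the smallest that 5 against 5 allows), but over the 8 ratio tests the adjusted exact p was 0.0635. At E10.5 the same ratio was -1.71 ± 0.14 in null and -1.77 ± 0.58 in flox hearts (SD, n = 3 each), where no exact p under 0.1 is possible. Cacna1d over Cacna1c, Kcnh2 over Kcnq1 and Cacnb2 over Cacna1c overlapped between genotypes at both stages, with adjusted exact permutation p-values of 0.533 to 1. The beta subunit and its pore kept nearly the same ratio at E9.5, 0.45 ± 0.11 in null and 0.45 ± 0.11 in flox hearts (SD, n = 5 each).

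The authors' deposited table of E9.5, which lists 3094 genes at an adjusted p of at most 0.05, held 7 of the 8 genes, without Hcn4. The expression tables list 24509 genes. That deposited table rests on the same libraries, so it is no separate support. Turned to null over flox, its log2 fold changes were -0.46 for Kcnq1, -0.46 for Kcnh2, -0.25 for Cacna1c, -0.53 for Cacna1d, -0.24 for Cacnb2, -0.18 for Slc8a1 and +0.64 for Cacna1g in the authors' deposited table. Its adjusted p-values for Cacna1d (0.0184) and Cacna1g (0.0141) in the authors' deposited table were under the threshold that these genes missed with limma. The authors' deposited table of E10.5 lists 1357 genes, of the 24509 in the expression tables, and none of the 8.

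Most other channel and exchanger genes were not called in either direction. Their lists were drawn up with earlier results of these data known, so they are described by counts and medians only. Of 25 other potassium channel subunits tested at E9.5, 6 rose, 1 fell and 18 did not pass, with a median log2 difference of 0.07 against -0.04 over all genes. Kcnk3, a background potassium channel, rose to 18.2 ± 3.1 RPKM in null against 9.96 ± 1.6 RPKM in flox hearts (SD, n = 5 each; limma adjusted p = 0.00245), and Kcnn4, a calcium-activated channel, to 8.01 against 3.03 RPKM. Kcnj11, the pore of the ATP-sensitive potassium channel, fell to 5.51 against 9.02 RPKM (limma adjusted p = 0.00828). At E10.5, 3 of 25 rose and none fell: Kcnk3 (19.5 ± 1.0 in null against 9.19 ± 1.4 RPKM in flox hearts; SD, n = 3 each), the accessory subunit gene Kcne3 (6.83 against 1.30 RPKM) and the inward rectifier gene Kcnj4 (1.79 against 0.23 RPKM). The median difference of that list at E10.5 was 0.20 against -0.03 over all genes.

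Among other calcium channel subunits and regulators, 2 of 15 rose at E9.5 (Cacnb1 and Cacnb3), 2 fell (Calm3 and Cacna1h) and 11 did not pass, with a median of 0.09. The beta subunits thus differed: Cacnb1, the beta subunit of skeletal muscle, averaged 2.55 ± 0.66 RPKM in null and 0.99 ± 0.07 RPKM in flox hearts and Cacnb3 8.53 ± 0.86 and 6.64 ± 0.97 RPKM, both higher in null, while Cacnb2 fell (SD, n = 5 each). Cacna1h, the second T-type pore of the heart, fell to 16 RPKM in null against 20.7 RPKM in flox hearts (limma adjusted p = 0.0430), and was far above Cacna1g. At E10.5, 1 of 17 rose, Cacnb1 (3.42 against 0.78 RPKM; limma adjusted p = 0.0485), and 16 did not pass; that call of Cacnb1 ended with a pseudocount of 1 or a filter at 1 RPKM, without the filter, and under the common median.

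Counterparts typical of skeletal muscle rose in 4 of 6 tested at E9.5 (Cacnb1, Scn4a, Cacna1s and Chrnb1). At E10.5, 3 of 5 rose (Kcne3, Chrnb1 and Cacnb1). Of all tested genes, 6.87% rose at E9.5, and 2.07% were called in either direction at E10.5. The rises of Cacnb1 and Kcne3 were already counted in the calcium and potassium lists above. Levels were low: the 13 listed genes summed to 10.0 to 25.5 RPKM in null and 6.31 to 11.1 RPKM in flox hearts at E9.5. The sum of 25.5 RPKM was that of null 4 alone. The other null libraries held 10.0 to 11.4 RPKM, and flox 4, at 11.1 RPKM, lay within that range. None of 10 other pacemaker and nonselective channel genes was called by limma at either stage, and none of 8 genes of the sinus node region. At an unadjusted p under 0.05 there were 3 and 1 at E9.5 and none at E10.5. The share of all genes under that limit was 22.9% at E10.5. It is not given here for E9.5, so the E9.5 counts cannot be judged against it. At E9.5 limma-voom called 1 in each list, and 2391 of all 13643 tested genes. Of 11 other exchangers and surface pumps, Slc24a5 rose and Slc8a2, a paralog of Slc8a1, fell at E9.5 (1.18 ± 0.20 RPKM in null and 1.79 ± 0.26 RPKM in flox hearts; SD, n = 5 each), and none was called by limma at E10.5, where 1 had an unadjusted p under 0.05. The erythroid sums given above were higher in null hearts beside all of these E9.5 counts, and their part in them was not tested. At E10.5 libraries null 2 and null 3 held more foregut and liver markers than any flox library, as given above. The part of those markers in the E10.5 rises, such as that of Kcne3, was not tested either.

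As a description, the genes whose log2 levels followed each of the 8 most closely were sought over the 16 libraries, among genes averaging 1 RPKM or more. These libraries differ in depth, stage and genotype, and the part of those differences in r was not tested. Slc8a1 was closest to Atp2a2, the calcium pump of the sarcoplasmic reticulum (Pearson r = 0.969), followed by Erbb4 and Ptgfrn. Cacnb2 was closest to Rbm24 (r = 0.965) and Rbm20 (r = 0.946), both RNA-binding proteins of muscle. Kcnh2 followed Tmem201 (r = 0.985) and Myo18b (r = 0.979), and Cacna1d was closest to Kcnh2 (r = 0.913). Among the leading genes of Cacna1c was Naca (r = 0.980), and those of Hcn4 were Trim71 (r = 0.983) and Rapgef1. Kcnq1 had the loosest leading match, Cox6a2 (r = 0.844). Cacna1g was closest to Pdgfrb (r = 0.914) and Lox (r = 0.908), a receptor and a matrix enzyme known from mesenchymal cells.

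With the starts of a gene pooled, CHD4 peaks of all 3 ChIP libraries lay within 5 kb at each of the 6 genes with an annotated start. These were Kcnh2, Hcn4, Cacna1c, Cacna1d, Cacnb2 and Slc8a1. At Cacna1d no single start had peaks of all 3 libraries within 5 kb: the first start lacked library 1 and the second lacked library 3. Pooled in the same way, such peaks were common, at 70.6% of 10314 genes, and within 1 kb the counts were 6 of 6 and 63.1%. Within 5 kb, with only the peaks scoring at or above the median of their list, they were 5 of 6 and 59.6%. The lists hold 84271, 60749 and 50232 peaks in libraries 1, 2 and 3. The peak score is the authors' own, its scale is not stated, and it is used only to rank peaks within a list. The 2 input libraries were not analysed here, and the ChIP came from wild-type hearts, so the lists say nothing of null hearts.

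The 4 printed stretches were overlapped by peaks of different rank, and some peaks reached only part of a stretch. The Hcn4 peak of library 3, at -387 to -234, ended before all of the marked matches there. The Cacnb2 peak of library 2, at -139 to 97, did not reach the NKX2 match at -170. At the Cacna1c start the peak of library 1 ran from position -812 to 546 relative to the start and scored above 98.7% of the peaks of its list, with 98.4% and 91.3% in libraries 2 and 3. At Slc8a1, where the GATA match is, peaks reached at most from position -515 to 148 relative to the start and ranked above 96.8%, 95.8% and 98.6% of their lists. The CG-rich Hcn4 stretch was overlapped by peaks above 88.3%, 92.5% and 56.3% of their lists, all ending before the start. At Cacnb2 the peaks ranked above 70.5%, 81.9% and 56.3% of their lists. At Kcnh2 no peak overlapped the 250 bases before the start, and the highest-scoring peaks nearby lay at -8714 to -7665 relative to it in library 1 (above 94.1% of its list), with overlapping peaks in libraries 2 and 3 (89.5% and 92.8%). This start is internal to the gene span (chr5:24319589-24351684, minus strand), so these peaks lie within Kcnh2. No start at the upstream end of the span was at hand. At the second start of Cacna1d peaks of all 3 libraries lay between 11335 and 12130 bases past it.

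**Figure D4:**
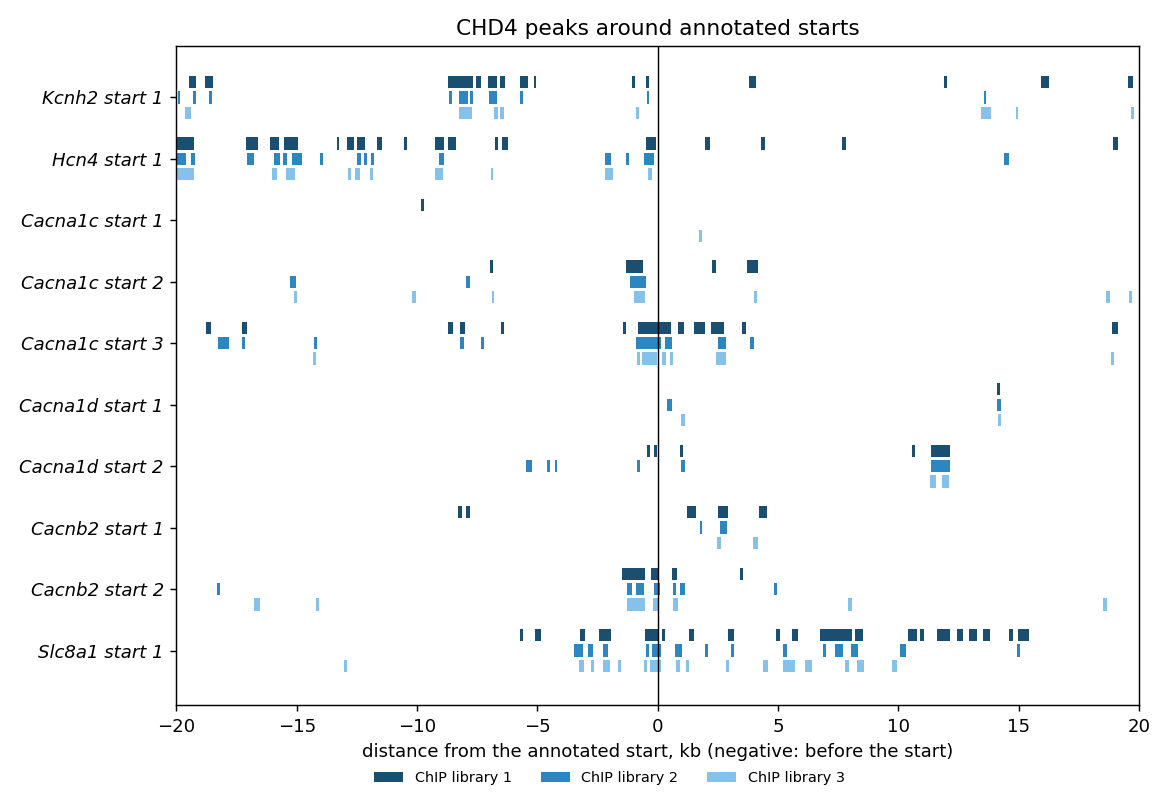
Authors' CHD4 peaks (bars, to scale) within 20 kb of each annotated start of the 6 genes, by ChIP library; the horizontal axis is distance in kb along the gene's strand, with negative values before the start. Peaks of all 3 libraries reach into the 250 bases before the start at Hcn4, Cacna1c start 3, Cacnb2 start 2 and Slc8a1. Kcnh2 has its densest peaks near -8 kb, which is inside the gene span because its start is internal.

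Over the whole gene, Slc8a1 stood far apart from the other 7. Its span (chr17:81373105-81738387, 365 kb) held 388, 359 and 404 peaks in the 3 libraries. Of the library 1 peaks, 203 overlapped a peak of library 2 and a peak of library 3, or 55.6 per 100 kb. Such peaks are called shared here, though the peaks of libraries 2 and 3 need not overlap each other. The count was not corrected for the part of a span that peaks cover. This ranking was made after the peaks were seen and has no test. Among the 1714 spans of at least 100 kb Slc8a1 ranked 1, ahead of Qk (43.4 per 100 kb), Ttn (28.4), Rbpms (22.4) and Airn (21.9), and the median over these spans was 0.67. The peaks were not gathered at the start: when the span was cut into 10 equal parts, each held between 23 and 52 in every library, and together they covered 56.1%, 27.1% and 33.9% of it in libraries 1, 2 and 3. They thinned outside the gene, to 10 to 13 peaks in the 100 kb before the start and 20 to 23 in the 100 kb past the end. The peaks were modest in score, with medians of 48, 37 and 37 in the span against 32, 37 and 37 over the lists.

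Slc8a1 is also among the more abundant genes of long span, at a mean of 93.7 RPKM over the 16 libraries. The 45 spans of at least 100 kb with a mean of at least 50 RPKM had a median of 2.60 shared peaks per 100 kb. Of the spans ranked next, Qk averaged 55.5, Ttn 8.45, Rbpms 75.6 and Airn 13.3 RPKM. The part of abundance in the density of peaks was not tested. Of the other genes, Kcnq1 had 19 shared peaks (5.93 per 100 kb, more than 98.7% of spans of like length, within 1.5 times its own), Kcnh2 had 4 in a short span (12.5 per 100 kb, 97.6%), Cacna1c 14 (2.29 per 100 kb, 96.2%), Cacnb2 9 (2.34 per 100 kb, 92.0%) and Cacna1d 4 (0.89 per 100 kb, 75.1%). Hcn4 and Cacna1g had no shared peaks. Part of the Kcnq1 span is shared with Kcnq1ot1, and part of the Cacna1c and Cacna1d spans with Dcp1b and Dcp1a, so neither the peaks nor, without strand, all of the reads there can be given to 1 gene with certainty.

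**Figure D5:**
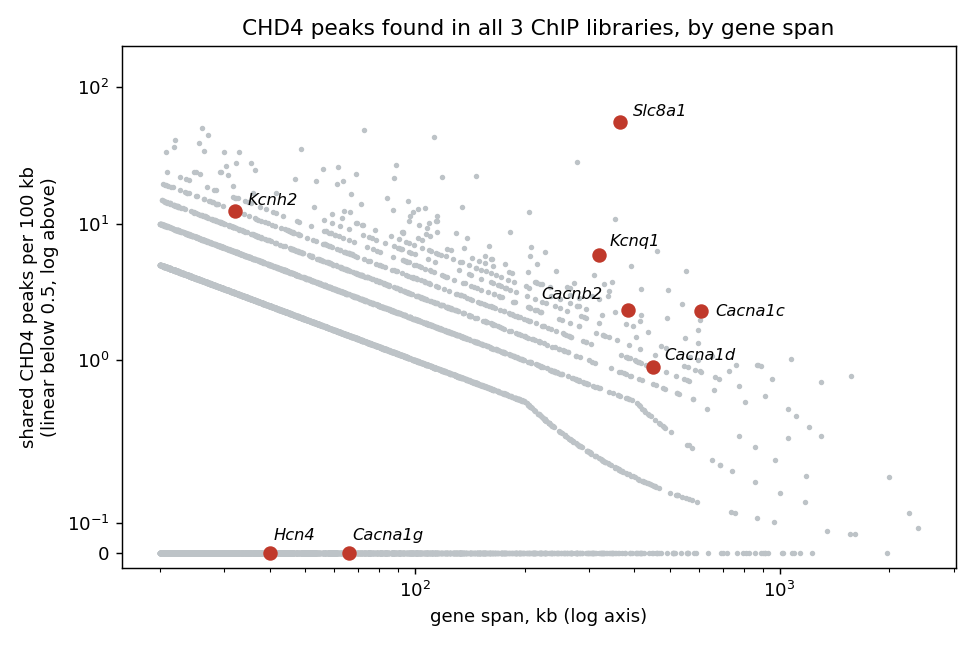
Places with CHD4 peaks in all 3 ChIP libraries per 100 kb of gene span (vertical, linear below 0.5 and log above), against the length of the span in kb (log axis), for spans of at least 20 kb; grey points are all tested genes and red points the 8 genes. Slc8a1 lies above every other span of at least 100 kb at 55.6 per 100 kb, and Hcn4 and Cacna1g lie at 0.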

How the data were processed

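Per the labels, RNA was polyadenylated and libraries were stranded. Per the submitters' processing notes, which are the authors' own, reads were handled on mm10 with MACS2, HTSeq 0.6.2, Bowtie 1.2.0, DESeq2 1.6.3, bedtools 2.25.0 and SAMtools 1.6. Neither the part each tool played nor the strand setting is stated there. RPKM values and gene lengths are used as the authors deposited them. Times length they gave whole reads, within 0.01, for all values, which gives each library's depth. The log2 fold changes and the adjusted p-values cited from the authors' deposited tables are theirs, and the tables run flox over null. Their mean signal per gene and their test score, also deposited, went unused. Peak lists and the score per peak are as the authors deposited them, 1 list per ChIP library.

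Differences were fitted with limma 3.58.1 in R 4.3.3 on log2(RPKM + 0.5), each stage alone, two-sided, for genes averaging 0.5 RPKM or more, with Benjamini-Hochberg adjustment over all tested genes. Stage contrasts and the interaction used all 16 libraries. The fits were tested on simulated data. Peaks were assigned to starts by an overlap of at least 1 base. Genes named outside the 8 were, per list and stage, up to 4 called genes of smallest p with a group mean of at least 1 RPKM, and for likeness the closest genes by Pearson's r. Genes of the same list named beside them, and the spans ranked by peak density, were chosen after their values were seen. Some results on other genes are not reported here. The 8 genes and all lists were chosen with earlier results of these data known. Replicates of a genotype differed by more than counting noise. Precision of low genes is limited by their reads, and intervals cover the spread between libraries. The depth was 17.1 to 23.5 M reads per library. Alternatives were other pseudocounts, filters, scalings, limma-voom, library weights, a replicate block, and leaving out each library.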

Additional observations from a re-analysis of the deposited data

Results flagged for a closer look

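In 24 groups of 5 libraries that were examined for a library far from the others, 2 stood out, where chance gives about 1 in 20. Both were library null 1 at E9.5. Hcn4 measured 32.5 RPKM there, and its gap to the next library was 0.785 of the whole range of the 5 null libraries. Cacna1d measured 6.03 RPKM there, with a gap of 0.794 of the range. The limit for 5 libraries is 0.71. Without this library both genes passed as lower in null hearts (limma adjusted p = 0.0161 for Hcn4 and 0.00638 for Cacna1d). It was flagged by these same high values, so its removal lowers the null means by construction, and these p-values are no separate support. Leaving out any of the other 9 libraries gave no call for Hcn4 (limma adjusted p = 0.226 to 0.473). Cacna1d also passed without flox 4, but did not when any of the other 8 was left out (limma adjusted p = 0.0917 to 0.123).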

How the results depend on the processing

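At E9.5, 2342 genes were called (937 higher and 1405 lower), against 3549 with library weights, 3698 with the replicate block and 1367 in the fit of 16 libraries. A common median gave 1134 higher and 1027 lower. At E10.5, 292 genes were called, against 162 without the filter, 1426 with library weights and 3150 in the fit of 16 libraries. The stage difference had 531 calls, against 301 with library weights. The cause of these shifts was not tested. With 1 library left out the counts were 1537 (without null 5) to 2773 at E9.5, 62 (without flox 3) to 356 at E10.5, and 4 (without flox 1 of E10.5) to 1795 (without null 2 of E10.5) for the stage difference. All 8 genes kept their direction at E9.5 and in flox hearts between stages in every alternative. At E10.5 directions turned with library choice. Hcn4 there was 0.38 with library weights, and the ranges with 1 library left out were -0.054 to 0.22 for Cacna1c, -0.094 to 0.16 for Cacna1d, -0.10 to 0.45 for Cacna1g, -0.39 to 0.072 for Cacnb2, -0.69 to 0.032 for Hcn4, -0.016 to 0.20 for Kcnh2, -0.17 to 0.090 for Kcnq1 and -0.41 to 0.014 for Slc8a1. None was called in any alternative. The stage difference likewise ranged from -0.54 to 0.0057 for Cacna1g, -0.12 to 0.34 for Cacnb2, -0.33 to 0.39 for Hcn4 and -0.19 to 0.23 for Slc8a1, and was -0.0058 for Slc8a1 with a common median. In null hearts between stages Kcnq1 turned to -0.024 with library weights, under which the call of Hcn4 ended (adjusted p = 0.0849), and that of Cacnb2 ended without the filter (adjusted p = 0.0630).

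Of the ratios with 1 library left out, at E9.5 Kcnh2 over Kcnq1 ranged from -0.26 to 0.019 (at E10.5, -0.062 to 0.38), Cacnb2 over Cacna1c from -0.029 to 0.045 at E9.5, and Cacna1g over Cacna1c from 0.63 to 0.81 at E9.5 (at E10.5, -0.28 to 0.24). Replicate numbers did not pair every library: same-numbered deviations had r of -0.14 to 0.52 at E9.5, and at E10.5 of -0.030 to 0.11. The flox library of their own number was the best match for 3 of 5 null libraries at E9.5 and 1 of 3 at E10.5. The labels do not say whether same-numbered libraries were paired. With the replicate block Cacna1d (adjusted p = 0.0108) and Cacna1g (adjusted p = 0.0347) passed at E9.5, and 269 genes were called at E10.5. Depth limits Cacna1g most, with 33 reads in its lowest library. The number of libraries, 3 a group, limits E10.5.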
